A study of Mus musculus with 20 samples.

Results

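The 10 acute-phase genes described here were followed across adipocyte cultures of Olfm2 knockout and wild-type mice: the orosomucoid genes Orm1, Orm2 and Orm3, the serum amyloid A genes Saa1, Saa2, Saa3 and Saa4, and Hp, Lcn2 and Lbp. They were chosen by symbol, all 10 of them among the 19505 genes of the array table, each by 1 probe. Their relation to the albumin gene Alb over the arrays was part of how the set was defined, so that relation is described here and not tested. Total RNA came from adipocytes that, per the labels, were differentiated in culture from mouse fat of 2 depots, written sc and g. The 20 arrays form 4 groups of 5: Olfm2 knockout sc (KO), wild-type sc (WT), Olfm2 knockout g and wild-type g. The sources used here do not say how Olfm2 was deleted, nor the strain, sex and age of the mice. The titles carry 10 numbers, each used once per depot (sc300KO and g300 KO), and the labels do not say whether these are mice or whether cultures were separate, so each p-value measures the spread among these samples, which may be technical.

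Acute-phase proteins are secreted proteins whose blood level changes in inflammation. The liver makes most of them when interleukin 6, interleukin 1 and glucocorticoids act through STAT3, NF-kappaB, C/EBP factors and the glucocorticoid receptor. Fat cells and fat tissue macrophages also make some: haptoglobin, lipocalin 2, serum amyloid A3 and orosomucoid are known secreted products of mouse fat. Orosomucoids carry lipophilic ligands and dampen inflammation, serum amyloid A proteins ride on high-density lipoprotein, haptoglobin (Hp) binds free haemoglobin, lipocalin 2 (Lcn2) withholds bacterial iron carriers, and Lbp hands lipopolysaccharide to CD14.

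Some arrays carried more liver transcripts than others. Arrays with a hepatocyte marker mean above 7 are called arrays with liver transcripts, or liver-transcript arrays, below. The mean log2 signal of 15 measured hepatocyte markers (of 16 listed, Alb among them) was 7.20 to 9.66 on 8 arrays (every g KO array but g300 KO, and sc300KO, sc318KO, g286 WT and g308 WT) and 5.13 to 5.90 on the other 12. Of those 12, 3 were sc KO, 5 sc WT, 1 g KO and 3 g WT. Alb still read 6.48 to 9.22 on those 12, above the medians of the negative control probes, so none was free of it. The labels name adipocytes, and the array means of 15 measured mature adipocyte markers were high: 10.85 to 11.05 in g KO and 10.28 to 10.66 in g WT arrays, which do not overlap, and 11.20 to 11.29 in sc KO and 10.91 to 11.25 in sc WT arrays. Macrophage marker means were 8.37 to 9.16 in g KO and 9.43 to 9.90 in g WT arrays, which do not overlap, and 7.73 to 8.29 in sc KO against 8.14 to 8.44 in sc WT arrays. Neutrophil marker means stayed between 4.72 and 5.14 on 19 arrays, near the medians of the negative control probes (4.45 to 4.84), and reached 5.87 on g309 WT. Skeletal muscle marker means were 5.64 to 11.20 in sc WT arrays, highest on sc286WT (11.20) and sc307WT (9.32), and 5.64 to 8.04 in sc KO arrays. They were 5.46 to 5.76 in g KO and 5.45 to 5.71 in g WT arrays. Olfm2 itself averaged 3.22 ± 0.38 in sc KO and 4.88 ± 0.42 in sc WT arrays. In g it averaged 3.54 ± 0.15 in KO and 4.34 ± 0.23 in WT arrays (SD, n = 5). The genotypes did not overlap in either depot. Olfm2 was near the negative control medians in WT arrays (4.28 to 5.25 in sc, 4.08 to 4.60 in g) and below them in KO arrays. That limits what its differences say of the transcript.

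Promoters are shown first for 5 members whose signals moved apart: the neighbouring genes Orm3 and Orm2 on chromosome 4, the macrophage and fat gene Saa3 and its chromosome 7 neighbour Saa4, and Lcn2 on chromosome 2. Each line is the 250 bases upstream of the annotated start, 5′ to 3′, from RefSeq on GRCm38.p6, which holds an entry for 7 of the 10 members. Capitals mark matches to TTNNGNAA (C/EBP), GGG and TTTCC with any 2 bases between (NF-kappaB), TTCNNNGAA (STAT) and TGTTCT (the core of a glucocorticoid receptor site), searched on both strands, and to TATAAA on the strand shown. The windows are chr4:63355908-63356157, plus strand; chr4:63362199-63362448, plus strand; chr7:46715677-46715926, minus strand; chr7:46732604-46732853, minus strand; and chr2:32387740-32387989, minus strand.
Orm3: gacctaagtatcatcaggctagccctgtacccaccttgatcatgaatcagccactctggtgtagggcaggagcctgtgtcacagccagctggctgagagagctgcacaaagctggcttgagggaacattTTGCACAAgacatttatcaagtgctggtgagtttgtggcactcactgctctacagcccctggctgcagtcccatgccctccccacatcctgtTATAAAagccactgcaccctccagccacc
Orm2: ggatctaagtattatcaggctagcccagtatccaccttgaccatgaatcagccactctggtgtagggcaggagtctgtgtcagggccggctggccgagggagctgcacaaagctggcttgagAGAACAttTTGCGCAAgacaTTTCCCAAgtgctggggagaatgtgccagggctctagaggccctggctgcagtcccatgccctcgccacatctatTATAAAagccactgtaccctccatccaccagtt
Saa3: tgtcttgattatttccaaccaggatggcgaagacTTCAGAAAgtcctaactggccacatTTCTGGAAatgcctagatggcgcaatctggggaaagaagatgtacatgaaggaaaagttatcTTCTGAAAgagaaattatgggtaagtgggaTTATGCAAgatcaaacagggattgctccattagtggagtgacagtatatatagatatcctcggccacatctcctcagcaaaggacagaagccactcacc
Saa4: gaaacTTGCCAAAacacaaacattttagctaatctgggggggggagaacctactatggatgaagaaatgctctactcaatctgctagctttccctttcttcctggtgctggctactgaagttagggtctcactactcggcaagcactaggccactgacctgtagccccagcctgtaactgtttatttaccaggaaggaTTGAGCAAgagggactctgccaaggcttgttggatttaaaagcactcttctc
Lcn2: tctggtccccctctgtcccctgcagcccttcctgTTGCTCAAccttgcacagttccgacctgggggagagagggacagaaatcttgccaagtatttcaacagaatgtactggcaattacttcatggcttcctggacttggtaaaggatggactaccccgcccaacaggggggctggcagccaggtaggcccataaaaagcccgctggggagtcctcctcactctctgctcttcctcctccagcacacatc

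The Orm3 and Orm2 windows were alike, with 218 of 250 bases identical (87.2%), and both held TATAAA 24 to 33 bases before the start. Orm2 had C/EBP matches at 120 to 113 and 108 to 101 bases upstream and a glucocorticoid receptor core at 128 to 123, while Orm3 had 1 C/EBP match, at 121 to 114, and no such core. Saa3 had 4 C/EBP matches, Saa4 had 2 and Lcn2 had 1, and no window of the 7 held the NF-kappaB or STAT letters. Such matches are common or short: 36.8% of 32851 RefSeq windows of this length hold the C/EBP letters, 16.1% the glucocorticoid receptor core, 7.59% TATAAA, 7.02% the STAT and 1.41% the NF-kappaB letters. A match is a description of the sequence and not a measured site. The windows of Saa1 and Saa2 shared 238 of 250 bases (95.2%). Orm and Saa genes are families of close copies, so a probe of one may also catch transcripts of another.

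Orm3 rose in knockout adipocytes of both depots and had the smallest p of the 10 genes in each. In sc, Orm3 read 5.53, 5.0, 5.80, 5.40 and 5.22 on sc300KO, sc306KO, sc317KO, sc318KO and sc320KO, against 4.02, 4.44, 3.57, 4.16 and 4.23 on sc286WT, sc287WT, sc307WT, sc308WT and sc309WT (log2 signal). In g it read 6.65, 6.47, 7.25, 6.66 and 6.54 on the KO arrays in the same order of numbers, against 4.21, 3.94, 3.67, 4.06 and 3.76 on the WT arrays. Every knockout array lay above every wild-type array of its depot. The group means were 5.39 ± 0.30 in sc KO and 4.09 ± 0.33 in sc WT, and 6.71 ± 0.31 in g KO and 3.93 ± 0.22 in g WT (SD, n = 5). The difference was 1.30 in sc (SE 0.17, limma adjusted p = 0.000756) and 2.78 in g (SE 0.17, adjusted p = 1.86e-08), with an exact two-sided permutation p of 0.00794 in each, the smallest that 5 arrays against 5 can give. Wild-type signals lay below the negative control medians, so no exact fold of the transcript follows from these log2 differences. These differences were known when the set was chosen and are not independent support for it.

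The knockout difference of Orm3 was larger in g than in sc, by 1.48 (SE 0.25, adjusted p = 0.0179). Over all genes 0.0769% passed this test of a difference between depots, and of the 10 members Orm3 alone did. Without the 8 arrays with liver transcripts the difference between depots was 1.60 and was not called (adjusted p = 0.247), a setting that leaves 1 g KO array, assumed to vary like the others. With the macrophage marker mean as a covariate it was 1.30 (adjusted p = 0.266), and with the hepatocyte mean added 1.37 (adjusted p = 0.25). The rise of Orm3 in g stayed called in each of 23 alternatives, with differences of 2.49 to 2.86. In sc it was called in 22 of 23, and not with hepatocyte, lymphocyte and skeletal muscle marker means as covariates (0.93, adjusted p = 0.068).

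Orm1 and Orm2, the other orosomucoid genes, rose in g knockout adipocytes and did not pass the test in sc. Orm1 read 10.54, 10.74, 10.23, 10.36 and 10.28 on the g KO arrays and 9.73, 10.06, 9.13, 9.77 and 9.40 on the g WT arrays, with no overlap. The difference was 0.82 (SE 0.19, adjusted p = 0.00869), a 1.76-fold higher signal. Orm2 read 7.35, 7.36, 7.34, 7.41 and 7.01 on the g KO arrays and 6.99, 7.12, 5.71, 6.62 and 6.50 on the g WT arrays. Of these, g287 WT lay above g320 KO, so the groups overlapped, and the difference was 0.71 (SE 0.21, adjusted p = 0.0296). In sc the differences were -0.07 for Orm1 (95% interval -0.47 to 0.33, adjusted p = 0.947) and 0.17 for Orm2 (-0.26 to 0.60, adjusted p = 0.84). For Orm1 the test of a difference between depots gave 0.89 (SE 0.27, adjusted p = 0.191), so the depots were not shown to differ. The call of Orm1 in g held in 20 of 23 alternatives. It was lost when the macrophage mean was a covariate, alone or with the hepatocyte mean (0.75 in both, adjusted p = 0.601 and 0.635). In those fits Orm3 was the 1 gene called of all genes. The Orm1 call was also lost without the 8 arrays with liver transcripts, which leaves 1 g KO array, with a difference of 1.01. Of 15 mature adipocyte markers, 11 also rose in g (median 0.46), where 5.01% of all genes rose. Their part in the rise of the orosomucoid genes was not tested. The call of Orm2 held in 10 of 23 and was lost without g300 KO, g306 KO, g317 KO, g318 KO, g307 WT or g309 WT, with adjusted p from 0.052 to 0.082; without g307 WT the difference was 0.49.

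**Figure D1:**
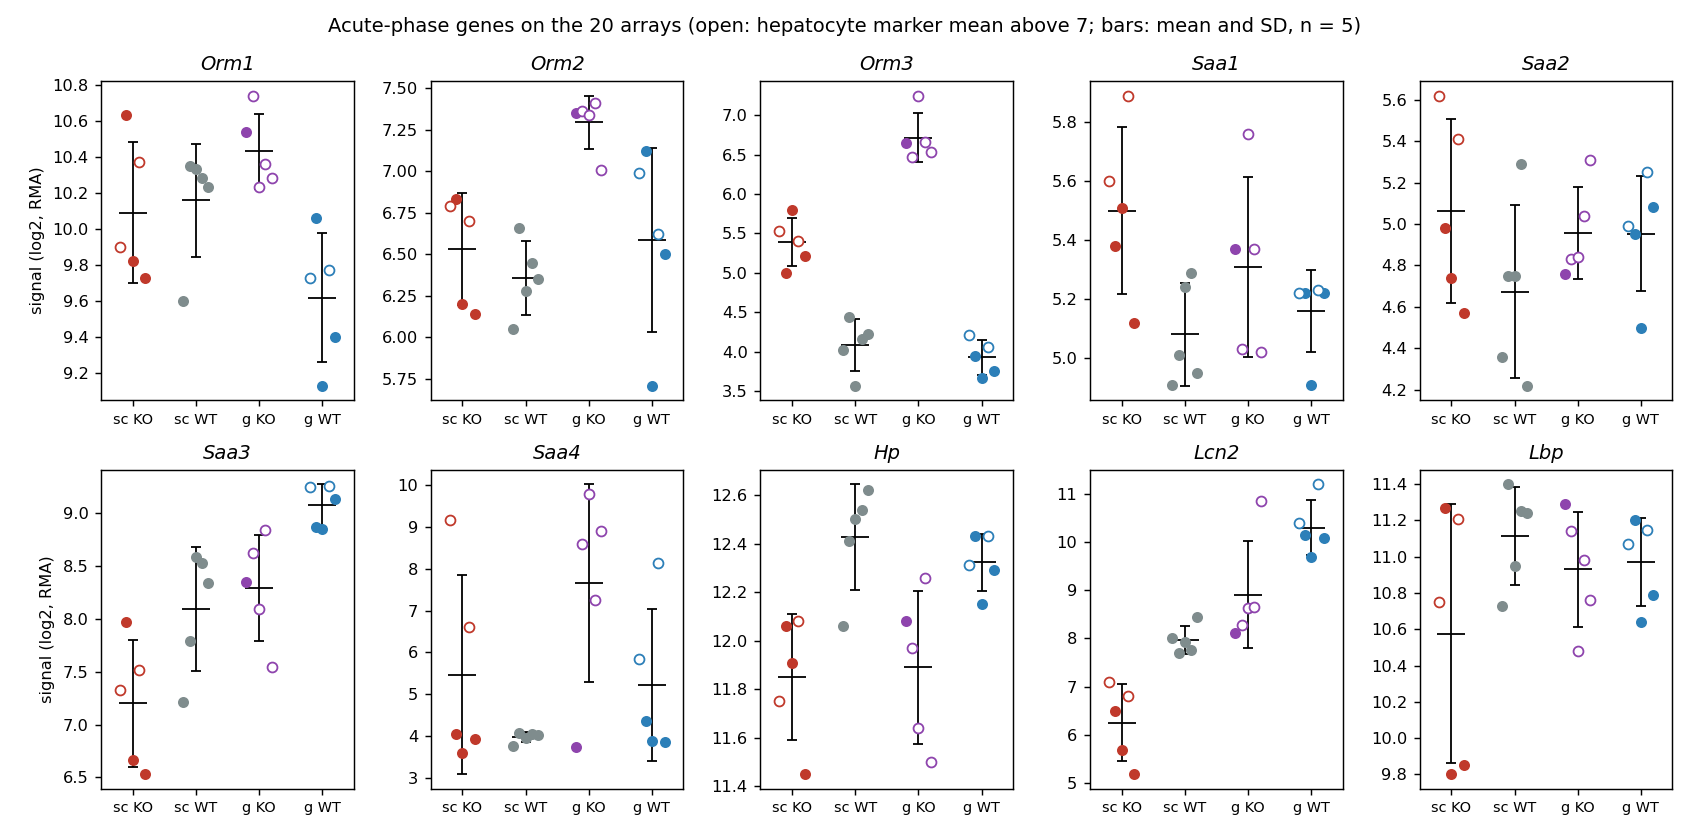
Log2 signal (RMA) of the 10 acute-phase genes on the 20 arrays, 5 each of sc KO, sc WT, g KO and g WT from left to right, with bars for mean and SD; the vertical scales differ between genes. Open points are the 8 arrays with a hepatocyte marker mean above 7. Orm3 separates the genotypes in both depots, and Saa4 is high on open points alone.

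Lipocalin 2 moved the other way. Lcn2 read 8.12, 8.28, 8.63, 8.65 and 10.85 on the g KO arrays, g320 KO last, and 10.40, 10.14, 9.68, 11.20 and 10.09 on the g WT arrays. Of the g KO arrays 4 lay below every g WT array, while g320 KO was above all but g308 WT. Lcn2 fell in g by 1.40 on the log2 scale (SE 0.43, adjusted p = 0.0407), a 2.63-fold lower signal. The call was lost in 13 of 23 alternatives. It was lost without each g array but g307 WT (adjusted p up to 0.102), apart from g320 KO, without which it was kept. In sc, Lcn2 read 7.09, 6.49, 5.69, 6.80 and 5.18 on the KO arrays and 8.0, 7.70, 7.93, 7.76 and 8.45 on the WT arrays. The sc groups did not overlap, but the difference of -1.71 (SE 0.43) did not pass over all genes (adjusted p = 0.0799; exact permutation p = 0.00794). With the hepatocyte mean as a covariate it was -2.11 (adjusted p = 0.0201), and without the liver-transcript arrays it was -2.18 (adjusted p = 0.00538). Over 23 alternatives it was -2.34 to -1.45, with adjusted p up to 0.222, and was called in 5.

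Haptoglobin and Saa3 had lower means in knockout arrays of both depots without passing the test. Hp averaged 11.85 ± 0.26 in sc KO and 12.43 ± 0.22 in sc WT arrays, a difference of -0.58 (SE 0.15, adjusted p = 0.0804). It averaged 11.89 ± 0.31 in g KO and 12.32 ± 0.12 in g WT arrays, a difference of -0.43 (SE 0.15, adjusted p = 0.0621). The Hp groups overlapped in both depots: sc318KO, at 12.08, stood above sc286WT, at 12.06, and g318 KO, at 12.26, above g307 WT, at 12.15. Over 23 alternatives the sc difference of Hp was -0.67 to -0.41 (adjusted p 0.0342 to 0.589), called only without sc286WT. The g difference was -0.52 to -0.05 (adjusted p 0.0235 to 0.981) and was called in 4. It was -0.52 without g318 KO, which was among those 4, but -0.20 without the liver-transcript arrays, which leaves 1 g KO array. Saa3 read 8.35, 8.62, 8.09, 8.84 and 7.55 on the g KO arrays and 9.25, 8.87, 8.85, 9.26 and 9.14 on the g WT arrays. All g KO arrays lay below all g WT arrays, yet the difference of -0.79 (SE 0.29) had an adjusted p of 0.0877 (-0.92 to -0.22 over 23 alternatives, called in 2). In sc, Saa3 averaged 7.20 ± 0.60 in KO and 8.09 ± 0.58 in WT arrays, a difference of -0.89 (SE 0.29, adjusted p = 0.201).

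Macrophage markers fell in the same g comparison. There, 12 of 14 measured macrophage markers fell in the knockout and 1 rose, where 6.27% of all genes fell and 5.01% rose. In a fit that held the macrophage mean, Orm3 was the 1 gene called of all genes. The differences in that fit were -2.66 for Lcn2 (adjusted p = 0.366), -0.26 for Saa3 (adjusted p = 0.941) and -0.05 for Hp (adjusted p = 0.981). Mesothelial marker means overlapped between the g genotypes, at 5.92 to 7.71 in g KO and 5.95 to 6.86 in g WT arrays, and limma called 0 of 10, of which 5 had an unadjusted p under 0.05. Since the macrophage means do not overlap between the g genotypes, this covariate and the knockout cannot be told apart there. Fewer cells of a type and less RNA per cell cannot be told apart in these bulk samples either.

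The lipopolysaccharide-binding protein gene Lbp and the plasma serum amyloid genes Saa1 and Saa2 did not pass in either depot. Lbp averaged 10.58 ± 0.71 in sc KO and 11.11 ± 0.27 in sc WT arrays (difference -0.54, adjusted p = 0.468), with the lowest values, 9.80 and 9.85, on sc317KO and sc320KO. These 2 arrays, with sc286WT, had the highest lymphocyte marker means of the sc arrays, 8.43 on sc317KO, 8.25 on sc320KO and 8.08 on sc286WT. Skeletal muscle marker means were high there too (8.04, 7.60 and 11.20 in that order), and on sc307WT (9.32). When the fit held hepatocyte, lymphocyte and muscle means together, the sc difference of Lbp was -0.25 (adjusted p = 0.902). The lymphocyte mean was not fitted on its own, so the separate part of lymphocytes in the Lbp values was not tested. In g, Lbp averaged 10.93 ± 0.32 in KO and 10.97 ± 0.24 in WT arrays (difference -0.04, 95% interval -0.56 to 0.48). Saa1 and Saa2 were dim, with all values between 4.22 and 5.89. Their differences were 0.42 (adjusted p = 0.232) and 0.39 (adjusted p = 0.542) in sc, and 0.15 (adjusted p = 0.599) and 0.00 (adjusted p = 0.997) in g.

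Of the members Saa4 followed albumin most closely over the 20 arrays. It read 9.16, 4.06, 3.60, 6.61 and 3.93 on the sc KO arrays, in the order of numbers used above, and 3.77, 4.07, 3.95, 4.06 and 4.02 on the sc WT arrays. In g it read 3.75, 8.60, 9.78, 7.26 and 8.90 on the KO arrays and 5.84, 4.37, 3.89, 8.14 and 3.87 on the WT arrays. All 8 values above 5 were on the 8 arrays with liver transcripts. The knockout differences, 1.50 in sc (SE 1.09, adjusted p = 0.701) and 2.43 in g (SE 1.09, adjusted p = 0.173), did not pass. Without those 8 arrays they were -0.11 in sc and -0.29 in g, where 1 g KO array is left. Without g300 KO, the g KO array with the lowest hepatocyte marker mean (5.62), the g difference was 3.41 and was called (adjusted p = 0.0293).

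**Figure D2:**
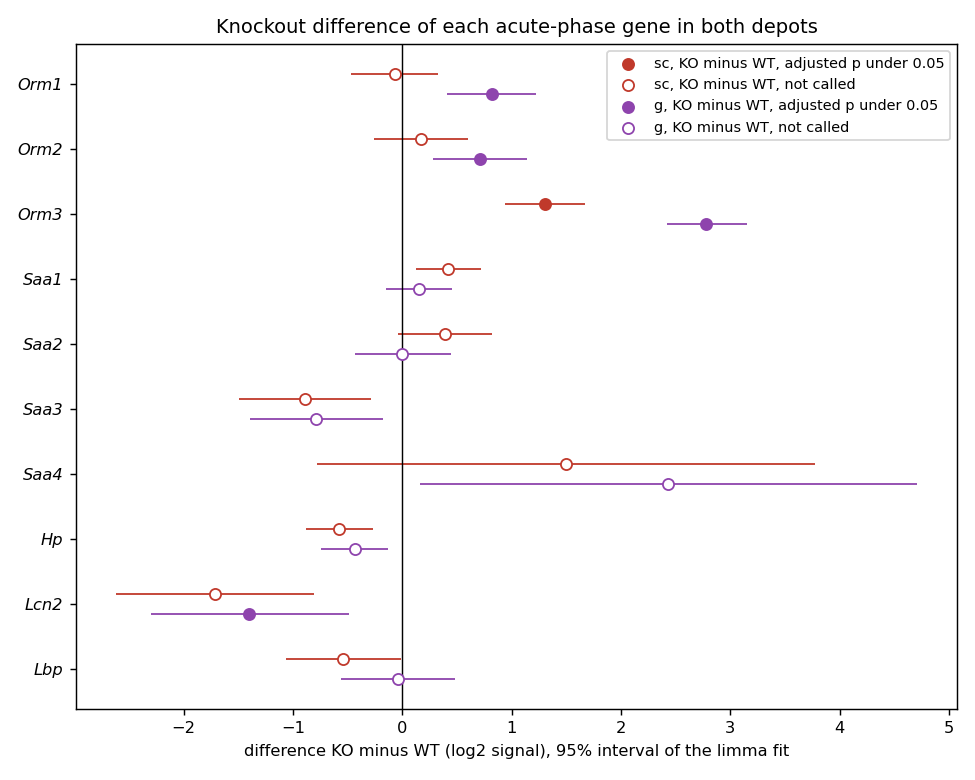
Difference in log2 signal, KO minus WT, of each acute-phase gene in sc (red) and g (purple), with 95% intervals of the limma fit; filled points passed an adjusted p of 0.05. Orm3 lies at 1.30 and 2.78, Lcn2 at -1.71 and -1.40, and the wide intervals of Saa4 cover 0 in sc alone.

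Of the 10 members 1 was called in sc, where 0.677% of all genes were called (0.297% higher), and 4 in g, where 11.3% were: 3 higher (5.01% of all genes) and 1 lower (6.27%). The member median was 0.05 in sc and 0.07 in g, beside medians of 0.01 and 0.02 over all genes, as members differed in both directions. Knockout and wild-type arrays stood apart for 2 members in sc (2.94% of all genes) and 3 in g (10.4%). Both knockout comparisons use their own wild-type arrays.

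The Pearson correlation with Alb over all 20 arrays was 0.92 for Saa4 (Spearman rho 0.73), 0.62 for Orm3, 0.56 for Orm2, 0.54 for Saa2, 0.40 for Saa1, 0.21 for Orm1, 0.15 for Lcn2, -0.07 for Saa3, -0.09 for Lbp and -0.50 for Hp. Spearman rho was 0.65 for Orm3 and between -0.54 and 0.52 for the members other than Saa4 and Orm3. These are descriptions: the arrays were split into 8 with a hepatocyte marker mean above 7 and 12 with a lower one. Knockout arrays are more frequent among the 8, and depots may share mice. Within the 8 arrays the correlation was 0.86 for Saa4, and between -0.50 and 0.19 for the other 9 members. Within the 12 arrays that of Saa4 was -0.26, and that of Orm3 was 0.60. Among those 12 the 4 knockout arrays had Alb signals from 7.81 to 9.22, beside 6.48 to 8.48 on the 8 wild-type ones, and Saa3, Hp and Lcn2, lower in knockout arrays, had correlations of -0.71, -0.66 and -0.67.

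After the mean of each group was subtracted, the correlation with Alb was 0.91 for Saa4, 0.52 for Lcn2, 0.47 for Saa2, 0.41 for Orm3 and 0.32 for Orm2, and between -0.13 and 0.19 for the others. Without sc300KO and g306 KO, the arrays farthest from the median of Alb, Saa4 kept 0.90 and Orm3 had 0.58. Orm3 was low on the liver-transcript arrays of wild-type mice (4.21 on g286 WT, where Alb was 10.84, and 4.06 on g308 WT, where Alb was 11.96). It was high on g300 KO (6.65), where Alb was 7.81. By these values Saa4 had the closest relation to Alb over the 20 arrays, and the source of its transcript was not tested. Orm3 was higher on every knockout array than on the wild-type arrays of its depot, on either side of the hepatocyte marker mean of 7. In g the lower side holds 1 knockout array, g300 KO.

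**Figure D3:**
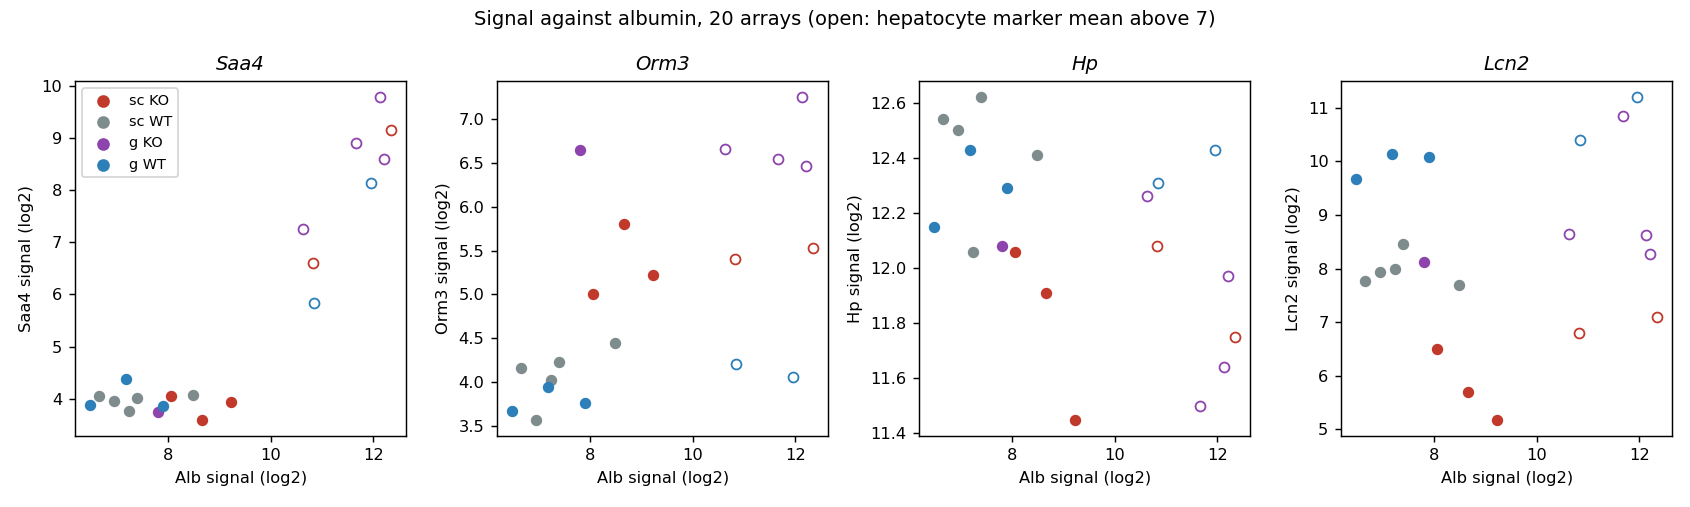
Log2 signal of Saa4, Orm3, Hp and Lcn2 against that of Alb on the 20 arrays, coloured by group, with open points for the 8 arrays with a hepatocyte marker mean above 7. Saa4 is above 5 on the open points alone, while the g KO points of Orm3 lie between 6.47 and 7.25. Of the g KO arrays g300 KO alone has a low Alb (7.81), and the others lie at 10.62 to 12.21.

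Lcn2 and Saa3 were higher in g than in sc in both genotypes. Lcn2 averaged 10.30 ± 0.57 in g WT and 7.97 ± 0.29 in sc WT (difference 2.34, SE 0.43, adjusted p = 0.000672), and 8.90 ± 1.11 in g KO and 6.25 ± 0.80 in sc KO (2.65, SE 0.43, adjusted p = 0.000962). The g and sc arrays did not overlap in either genotype. Saa3 was higher in g by 0.98 in WT (SE 0.29, adjusted p = 0.0215) and by 1.09 in KO adipocytes (SE 0.29, adjusted p = 0.0362). Orm3 differed by -0.16 between g and sc in WT (95% interval -0.52 to 0.21, adjusted p = 0.607), but was higher in g by 1.32 in KO (SE 0.17, adjusted p = 0.000133), and Orm2 by 0.76 in KO (SE 0.21, adjusted p = 0.0393). For Orm1 the WT difference was -0.55 (SE 0.19, adjusted p = 0.0565; 0.0414 with the number in the title as a replicate block). It was called without sc286WT (-0.69, adjusted p = 0.0135) and without g287 WT (-0.66, adjusted p = 0.0259). Called members numbered 2 in WT, both higher in g, where 17.8% of all genes were called (9.30% higher), and 4 in KO, all higher in g, where 4.13% were (2.87% higher). The depots did not overlap for 2 members in WT (16.1% of all genes) and for 3 in KO (4.26%). The other members had WT differences from -0.14 to 1.25.

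Mesothelial marker means were 5.92 to 7.71 in g KO and 4.94 to 5.11 in sc KO arrays, and 5.95 to 6.86 in g WT and 4.75 to 5.12 in sc WT arrays, and macrophage means were also higher in g. With the mesothelial mean as a covariate the depot differences of Lcn2 were 1.26 in WT (adjusted p = 0.317) and 1.28 in KO (adjusted p = 0.54). In a fit with the macrophage mean the WT differences were 4.28 for Lcn2 (adjusted p = 0.131) and 0.18 for Saa3 (adjusted p = 0.944). In either genotype, neither the mesothelial nor the macrophage means overlap between depots, so neither covariate can be told apart from the depot. The Orm2 call in KO was lost without g300 KO, g306 KO, g317 KO, g318 KO, sc317KO or sc320KO (adjusted p from 0.0668 to 0.119). The Saa3 call in KO was lost without g300 KO, g306 KO, g318 KO, sc300KO, sc317KO or sc320KO (adjusted p from 0.0545 to 0.114), and in WT without sc286WT or sc287WT (0.0573 and 0.0556).

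By level, the order of the groups for Orm3 was g KO, sc KO, sc WT and g WT, and the last 2 did not differ beyond their spread. For Lcn2 the order was g WT, g KO, sc WT and sc KO; g KO (8.12 to 10.85) and sc WT (7.70 to 8.45) overlapped. For Hp both wild-type means, 12.43 in sc and 12.32 in g, stood above both knockout means, 11.89 in g and 11.85 in sc, and neither depot pair differed beyond its spread.

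Genes with the pattern most like that of a member were sought over the 20 arrays, as a description. For Orm3 they were Thrsp, a regulator of fatty acid synthesis, Slc22a17, which encodes a lipocalin 2 receptor, and the metalloproteinase inhibitor Timp4 (r = 0.90 each), then Gstm4 and the serine synthesis enzyme Phgdh (0.89 each). After group means were subtracted they were Pnma2 (0.80), Zpbp (0.76), Crtc2 (0.75), Krt17 and Ciz1 (0.74 each). For Hp, Mfap2 (0.92) and the acute-phase glycoprotein gene Lrg1 (0.90) came first, and Lrg1 led again after group means were subtracted (0.92). Saa3 was most like the elongation factor gene Ell2 (0.95) and Lacc1 (0.94), and Lcn2 most like the endocytic adaptor gene Dab2 (0.93) and Mfap4 (0.92). Among the members, after subtraction of group means, r was 0.81 for Saa3 with Hp and for Orm1 with Lbp, 0.77 for Orm1 with Orm2, 0.02 for Saa3 with Lcn2 and 0.27 for Orm2 with Orm3. These arrays share depots, genotypes and the transcripts of other cells.

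Of the cytokines and receptors that induce acute-phase genes, 18 of 19 were measured. In g KO adipocytes 5 fell and 1 rose, with a median of -0.15, where 6.27% of all genes fell and 5.01% rose. The falls were led by the cytokine Tnf (-1.02, SE 0.31, adjusted p = 0.0343), its receptor Tnfrsf1b (-0.92, SE 0.14, adjusted p = 0.000308), the interleukin 1 receptor Il1r1 (-0.87, SE 0.08, adjusted p = 2.67e-06) and the oncostatin M receptor Osmr (-0.64, SE 0.15, adjusted p = 0.00742). Tnf overlapped between the g genotypes, at 4.68 to 6.09 in KO and 5.94 to 6.74 in WT arrays, while Tnfrsf1b, Il1r1 and Osmr did not. The shared receptor subunit Il6st, the fifth, fell by 0.25, and the leukaemia inhibitory factor receptor Lifr rose by 0.31 (adjusted p = 0.00738). In sc limma called 0 of the 18, where 0.677% of all genes were called, and 5 of the 18 had an unadjusted p under 0.05, as had 10.3% of all genes. The smallest p were those of Il1r1 (-0.32, adjusted p = 0.0593) and Il6ra, the interleukin 6 receptor (0.38, adjusted p = 0.115).

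Of 21 measured signal transducers and transcription factors, 2 rose and 1 fell in g, with a median of -0.08. That is close to the share over all genes, of which 11.3% were called in g. Socs3, a feedback inhibitor induced by STAT3, fell (-0.52, SE 0.10, adjusted p = 0.00213), with 5.60 to 5.98 in g KO and 6.10 to 6.58 in g WT arrays. The fat cell factors Klf15 (1.13, SE 0.19, adjusted p = 0.000831) and Cebpa (0.56, SE 0.11, adjusted p = 0.00287) rose, and Klf15 was the 1 gene of this list called in sc (0.90, SE 0.19, adjusted p = 0.0347).

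Receptors and partners of the 10 proteins changed in both directions in g, 2 of 21 measured rising and 6 falling (median 0.07). Over all genes 5.01% rose and 6.27% fell there. Cd14, which takes lipopolysaccharide from Lbp, fell by 1.07 (SE 0.15, adjusted p = 0.000166), with 7.21 to 7.78 in g KO and 8.16 to 8.99 in g WT arrays. Tlr2, P2rx7 (both reported to respond to serum amyloid A) and Hmox1, the heme-degrading enzyme, fell by 0.72, 0.99 and 0.96. Lrp1 (-0.45, adjusted p = 0.0251) and the lipopolysaccharide receptor Tlr4 (-0.43, adjusted p = 0.0228), both named after their values were seen, fell as well. Cd163, the haptoglobin-haemoglobin receptor of macrophages, rose instead (1.04, SE 0.22, adjusted p = 0.0035), with 7.51 to 8.61 in g KO and 6.57 to 7.19 in g WT arrays. Slc22a17 rose by 0.54 (adjusted p = 0.00167). In sc the 1 called gene of the list was Hmox1 (-0.76, adjusted p = 0.0371). Of these genes Cd14 and Cd163 are also in the macrophage list.

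**Figure D4:**
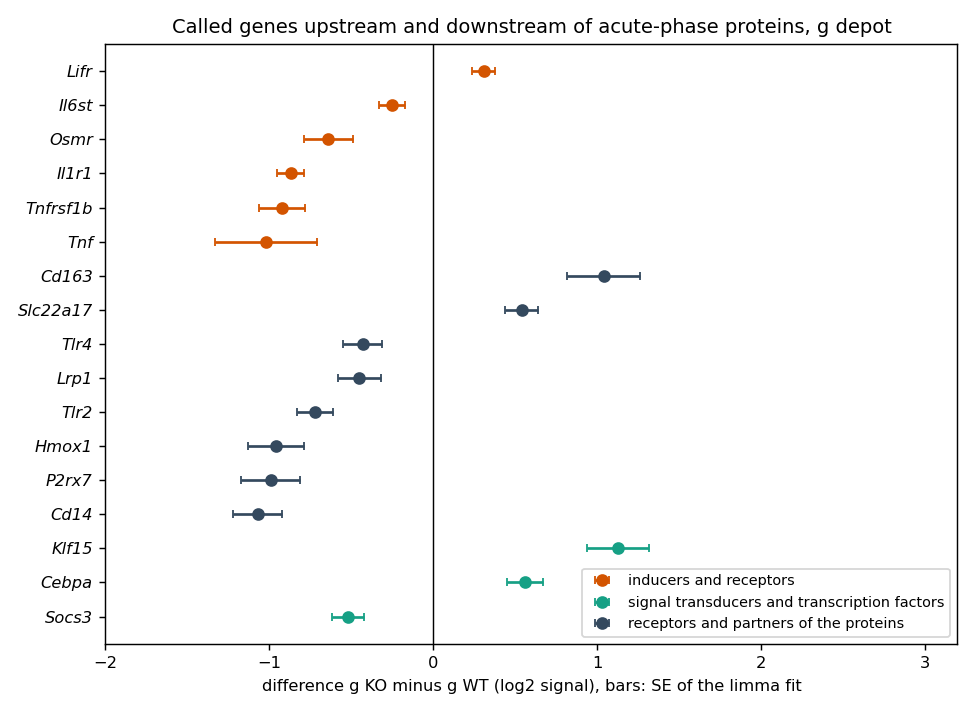
Difference in log2 signal, g KO minus g WT, of the 17 called genes among inducers and receptors (orange), signal transducers and transcription factors (green) and receptors and partners of the acute-phase proteins (dark), with bars for the SE of the limma fit. Falls are led by Cd14 at -1.07 and Tnf at -1.02, and rises by Klf15 at 1.13 and Cd163 at 1.04.

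Of 25 measured other acute-phase protein genes, 1 rose and 2 fell in g (median 0.41), near the 11.3% called over all genes. In sc limma called 0 (0.677% of all genes), and 6 had an unadjusted p under 0.05 (10.3% of all genes). Agt, which encodes angiotensinogen, rose (1.17, SE 0.25, adjusted p = 0.00383), with 8.99 to 10.02 in g KO and 7.90 to 8.66 in g WT arrays. The interleukin 1 receptor antagonist Il1rn (-1.51, SE 0.44, adjusted p = 0.0296) and the complement gene C4b (-0.48, SE 0.13, adjusted p = 0.0184) fell. The Il1rn groups overlapped, at 4.56 to 7.82 in g KO and 7.62 to 8.79 in g WT arrays, and those of C4b did not. In sc the smallest p were those of the protease inhibitor gene Serpina3n (-0.58) and Il1rn (-1.50), each with an adjusted p of 0.138. Of 10 negative acute-phase genes, whose plasma proteins fall in inflammation, 1 was called in g, near the 11.3% of all genes. It was Rbp4, the retinol carrier that fat also makes (1.32, SE 0.20, adjusted p = 0.000356). Rbp4 read 10.96 to 11.58 in KO and 9.42 to 10.37 in WT arrays. In sc limma called 0 of the negative acute-phase genes. There 1 had an unadjusted p under 0.05 (10.3% of all genes), and that was Alb (2.48, SE 1.01, adjusted p = 0.359).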

How the data were processed

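Total RNA of the adipocyte cultures was measured on 20 expression arrays, after labelling 100 ng with the GeneChip WT PLUS kit, per the labels' protocols. The submitters' processing notes name RMA and limma, and the deposited value of a probe is the authors' RMA log2 signal; the sources used here give no versions and do not say whether all arrays were normalised together. Of 28846 probes, 6640 controls were left out, 19572 carry 1 gene symbol and 2634 none. The probe with the highest mean was kept for each of 55 genes with several, which left 19505 genes. The number of arrays limits the precision.

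Differences were tested with limma 3.58.1 under R 4.3.3, in 1 fit of 4 group means, which leaves 16 residual degrees of freedom. There were 5 comparisons, with two-sided moderated p-values and Benjamini-Hochberg adjustment over all 19505 genes, and a gene was called at an adjusted p under 0.05. The words rose and fell stand for called genes. The SE and 95% intervals are those of the fit. On simulated data with 200 changed genes the fit recovered 58.5% of them at a fold of 1.5 and 92% at a fold of 2 for the sc knockout comparison, and 60% and 89.5% for the g one. The changed genes were picked at random, and noise was drawn for each gene on its own at its residual SD. Transcripts of other cells shared by an array were not simulated. The recovered shares need not hold for single members with a wide spread, such as Saa4 (SE 1.09). Promoters were searched in Python 3.11.15 and aligned with Biopython 1.88.

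The members and gene lists were chosen with earlier results of these data known. Named genes are all members, Alb and Olfm2; of each list the called genes with the largest differences (up to 5 a comparison) or, with none called, the 2 with the smallest p; and the 5 genes most like Orm3, Saa3, Hp or Lcn2, of which some are printed. Il6st, Tlr4 and Lrp1 were named beyond this rule, which completes the called genes of their lists in g. Likeness was not listed for Gm and Rik genes or for olfactory and vomeronasal receptors. Residuals of sc and g arrays with the same number correlated between -0.461 and 0.142 over genes (median 0.0111), and 3 of 10 numbers matched their own best, so the fit had no block. Alternatives were leaving out each array, marker means as covariates, other filters, scaling and variance models, and the number as a block. Covariates of hepatocyte plus macrophage means and of mesothelial means were added after the data were seen.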

Additional observations from a re-analysis of the deposited data

Results flagged for a closer look

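Among 40 groups of 5 arrays (10 genes in 4 groups), 5 held an array far from the other 4, where chance gives about 5% of groups. Lcn2 was 10.85 on g320 KO, beside 8.12 to 8.65 on the other g KO arrays. Orm2 was 7.01 on the same array, beside 7.34 to 7.41. Orm3 was 7.25 on g317 KO, beside 6.47 to 6.66. Orm1 was 9.60 on sc286WT, beside 10.23 to 10.35 on the other sc WT arrays, and Saa1 was 4.91 on g307 WT, beside 5.22 to 5.23.

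The knockout difference of Orm3 was 1.48 larger in g than in sc by the test of that difference (limma adjusted p = 0.0179), with every knockout array above every wild-type array in both depots.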

How the results depend on the processing

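The number of called members moved in some settings. For sc KO against WT it was 1, became 2 (Orm3 and Lcn2) with the hepatocyte mean as a covariate, without the 8 liver-transcript arrays, with only the groups compared, with hepatocyte and macrophage means and with the mesothelial mean, and 0 with hepatocyte, lymphocyte and muscle means. Over all genes 132 were called in sc, and 28 with hepatocyte, lymphocyte and muscle means. Without the 8 arrays 1 g KO array is left, where Orm3 differed by 2.86 in g and by 1.60 between depots. For g KO against WT the number of called members was 4, beside 2200 called over all genes. It became 1 with the macrophage mean and with hepatocyte and macrophage means, where Orm3 was the 1 gene called of all genes. For the difference between depots it was 1 and became 0 in those settings. For g against sc in WT it was 2 and became 1 (Lcn2) without the 8 arrays and 0 with the macrophage, hepatocyte and macrophage, or mesothelial means. For g against sc in KO it was 4, became 2 (Orm3 and Lcn2) with the hepatocyte or the macrophage mean, 1 (Lcn2) without the 8 arrays, and 0 with hepatocyte and macrophage or with mesothelial means. Leaving out 1 array gave 1 to 2 called members for the sc knockout comparison, 2 to 4 for the g one, 1 to 1 for the difference between depots, and 1 to 3 in WT and 2 to 4 in KO for g against sc. In these cases the cause was not tested.

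Signs turned for differences that were not called, and in 1 case for a called one, Saa3 in g WT against sc WT, which was -0.17 (adjusted p = 0.991) with hepatocyte and macrophage means. In sc, Saa4 was -0.35 with the hepatocyte mean, -0.11 without the 8 arrays, -0.05 with 3 covariates and -0.37 with hepatocyte and macrophage means, and Orm1 was 0.16 with 3 covariates and -0.21 to 0.02 with 1 array left out. In g, Saa4 was -0.29 without the 8 arrays and -0.57 with the macrophage mean, and Lbp was 0.41 without the 8 arrays, 0.02 after quantile normalization, 0.06 with the mesothelial mean and -0.13 to 0.07 with 1 array left out. Orm3 in g WT against sc WT was 0.30 with the macrophage mean.

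The number in the title as a replicate block left the called members as they were, 1, 4, 1 and 4, except in g against sc in WT, where Orm1 (-0.55, adjusted p = 0.0414) made 3. Signals near the negative control medians (Orm3 in WT, Olfm2, Saa1, Saa2 and low Saa4 values) limit what a difference says of the transcript.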
